A study of Homo sapiens with 9 samples.

Results

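The end of the long arm of human chromosome 21 carries S100B and PRMT2, and the longest γH2AX region of each untreated wild-type library lay on PRMT2. All regions on chromosome 21 that touched positions 47900000 to 48119895 (genome build hg19) were taken from the 8 lists of γH2AX regions. There were 325 of them among 234983 regions in all, of which 5118 were on chromosome 21. They were assigned to S100B (48018531 to 48025035), to PRMT2 (48055507 to 48084894), to the 30.471 kb between the genes, to the 118.531 kb before S100B or to the 35.001 kb beyond PRMT2. By these limits 8 regions touched S100B, 49 touched PRMT2, 40 touched the stretch between them, 210 the stretch before S100B and 26 the stretch beyond PRMT2, and a region across a limit was counted on both sides of it. The locus was chosen by the length of the WT mock regions, so values against WT mock are descriptions and carry no test. No hg19 annotation was used here, so positions inside the genes are not split into exons, introns or untranslated ends.

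γH2AX is the histone variant H2AX phosphorylated on its tail by the kinases that sense DNA breaks and stalled replication. The mark spreads along the chromatin on both sides of a lesion, so it forms broad domains rather than sharp peaks. PRMT2 is a protein arginine methyltransferase that also acts as a coactivator of nuclear receptors. S100B is a small calcium-binding protein of the S100 family, best known from glia. In RefSeq's gene order DIP2A precedes S100B, and a few non-coding genes and pseudogenes, among them DSTNP1 and RPL23AP4, follow the start of PRMT2 toward the chromosome end.

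The libraries came from K562, an established human leukaemia line with erythroid and megakaryocytic potential. The 4 groups, with 2 libraries each, were FANCL knockout cells given PMA at 5 nM (KO PMA), FANCL knockout cells mock treated (KO mock), wild-type cells given PMA at 5 nM (WT PMA) and wild-type cells mock treated (WT mock), all for 72 h. FANCL is the ubiquitin ligase of the Fanconi anaemia core complex, and PMA is a phorbol ester that activates protein kinase C. The labels name no clone, and the region lists hold nothing that checks the knockout. The labels do not say that replicates were separate cultures, so p-values measure the spread between libraries, which may be technical.

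The 8 libraries held 15.6 to 27.2 M (mega) tags. There were 15.6 to 18.3 M in KO libraries, 27.2 and 16.97 M in WT PMA, and 23.9 and 23.4 M in WT mock. The calling threshold per 10 M tags was 7.12 to 7.69 in KO, 5.89 and 7.07 in WT PMA, and 6.26 and 6.42 in WT mock. The WT mock libraries were thus deeper than all KO libraries and had a lower threshold, while WT PMA replicate 2 lay within the KO range of depth. The part of depth in region length was not tested. Regions covered 42.6 and 34.6 Mb of the genome in KO PMA, 17.5 and 17.6 Mb in KO mock, 31.5 and 24.9 Mb in WT PMA, and 9.85 and 8.42 Mb in WT mock. Over the whole genome, KO libraries thus had more covered length than WT libraries under the same treatment. Every list was called against the single WT mock input, so a copy number that differs in KO cells or after PMA cannot be told apart from a change in the mark. A position outside regions had no call, which does not mean that it had no tags, and those tags are not analysed here.

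The sequence before PRMT2 is shown because every library left the start of the gene uncovered, in WT as in KO. The 250 bases before the transcription start, from RefSeq (GRCh38.p14, chr21:46635424-46635673, plus strand), are printed 5′ to 3′ with each CG dinucleotide in capitals.
PRMT2 promoter: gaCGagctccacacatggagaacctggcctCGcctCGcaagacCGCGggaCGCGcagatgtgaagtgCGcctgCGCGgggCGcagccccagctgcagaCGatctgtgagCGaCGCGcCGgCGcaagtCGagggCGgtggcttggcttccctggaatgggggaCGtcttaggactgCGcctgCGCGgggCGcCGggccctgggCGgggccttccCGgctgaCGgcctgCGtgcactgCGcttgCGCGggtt
They hold 32 CG dinucleotides, against a median of 11 over 35116 promoter windows of this length, and 90.5% of those windows hold fewer. At least 1 CG, which reads the same on both strands, is present in 93.9% of the windows. The G and C content is 72%, against a median of 58%.

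On the hg19 coordinates of the region lists, neither the start of PRMT2 nor the stretch from 250 bp before to 50 bp after it was touched by a region in any of the 8 libraries. The uncovered gap around the start was 6686 and 15990 bp in KO PMA, 20837 and 17964 bp in KO mock, 2198 and 7178 bp in WT PMA, and 1838 and 4232 bp in WT mock. Calls resumed 843 to 5200 bp after the start in WT libraries, whereas in KO libraries the first call inside the gene lay 5357 to 12812 bp after it. The WT gaps were thus shorter, although the longest one in WT (7178 bp, WT PMA) exceeded the shortest one in KO (6686 bp, KO PMA). Longer gaps occurred elsewhere in the window, though not between regions of WT mock replicate 2. Examples ran from 48015081 to 48032270 in WT PMA replicate 1 and from 47986615 to 48026474 in KO PMA replicate 1. The share of gene starts left uncovered over the genome was not counted, so the uncovered start is not shown to be particular to PRMT2.

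**Figure D1:**
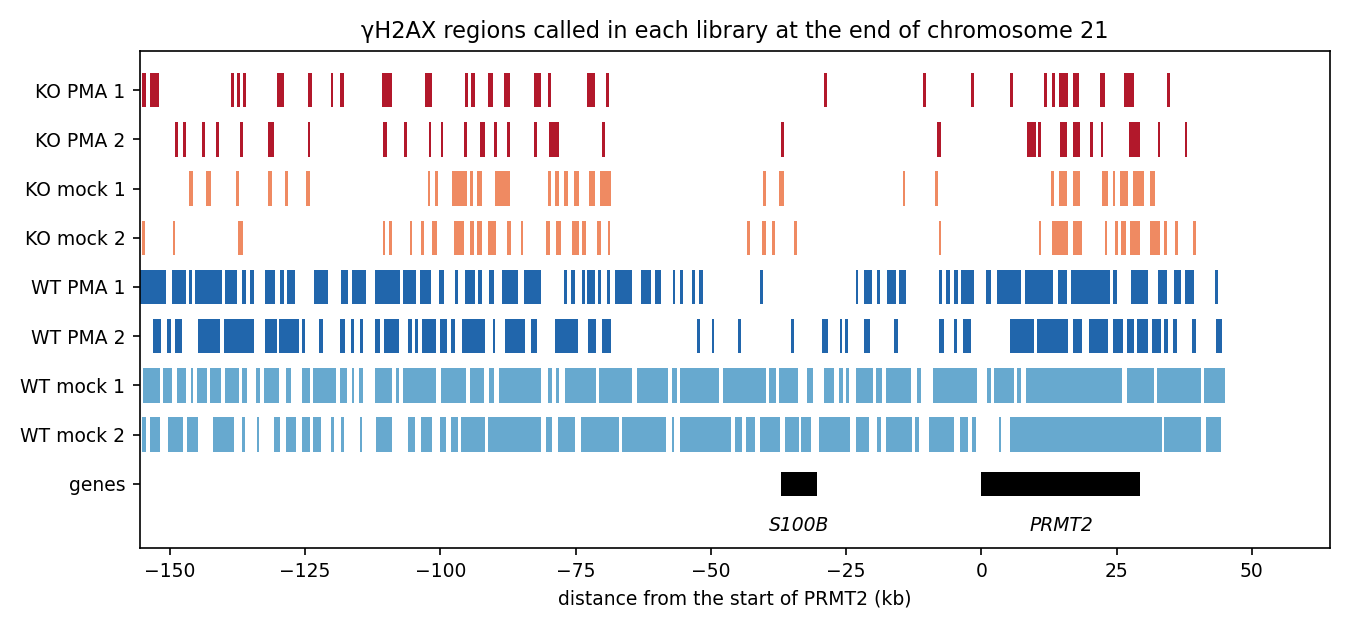
Regions called in each of the 8 libraries (rows, 4 groups of 2), drawn to scale against the distance from the start of PRMT2 in kb, with both genes in black. WT mock regions run almost without a break over PRMT2, WT PMA regions cover most of it, and KO libraries have short, separate regions on it, the first 5357 to 12812 bp after its start, and few near S100B.

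Regions covered most of PRMT2 in WT cells and a minor part of it in KO cells, with or without PMA. The covered length was 6.99 and 7.75 kb in KO PMA, 8.29 and 9.03 kb in KO mock, 22.02 and 19.4 kb in WT PMA, against 25.4 and 24.6 kb in WT mock. As shares of the 29.388 kb gene these were 23.8% and 26.4%, 28.2% and 30.7%, 74.9% and 66.0%, and 86.4% and 83.7%, in the same order of groups. Group means were 7.37 ± 0.536 kb in KO PMA, 8.66 ± 0.522 kb in KO mock, 20.7 ± 1.86 kb in WT PMA and 24.9955 ± 0.547 kb in WT mock (SD, n = 2 each). All 4 KO libraries lay below all 4 WT libraries, a separation whose share over the genome was not counted. Its parts were not rare. KO PMA lay below WT PMA without overlap in 35.2% of the 100 kb bins of the genome, and KO mock below WT mock in 10.9%. These bins are longer than PRMT2, and WT mock chose the locus. KO PMA and KO mock were the closest neighbours in this order with a difference of −1.29 kb.

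The number of regions on PRMT2 did not follow the covered length. Each KO PMA, KO mock and WT PMA library had 7 regions touching the gene, and the WT mock libraries had 5 and 2. What differed was how long they were. The longest region touching PRMT2 measured 1725 and 2032 bp in KO PMA, 2004 and 3005 bp in KO mock, 7213 and 5756 bp in WT PMA, and 17857 and 28040 bp in WT mock. The WT mock regions ran from 48063708 to 48081565 in replicate 1 and from 48060785 to 48088825 in replicate 2, so the second reached past the end of the gene. Each was the longest region of its whole library, which is what chose the locus. Ranked by length, the longest PRMT2 region stood at 4952 and 2725 among the 42896 and 37893 regions of the KO PMA lists and at 604 and 238 of 24773 and 24340 in KO mock. In WT PMA, which the choice did not use, it stood at 27 and 25 of 42546 and 36252 regions.

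The deposited tag count of these longest regions, normalised to 10 M tags of the library, was 30.7 and 40 in KO PMA, 30.9 and 70.5 in KO mock, 156 and 145.5 in WT PMA, and 470.2 and 731.8 in WT mock. The 95% Poisson intervals, which cover counting error only, were 23.2 to 39.8 and 30.8 to 51.1 in KO PMA, 23.3 to 40.2 and 57.9 to 84.96 in KO mock, 141 to 172 and 128 to 165 in WT PMA, and 443 to 498 and 698 to 767 in WT mock. The authors' fold over input of the same regions was 4.07 and 2.66 in KO PMA, 2.73 and 3.97 in KO mock, 3.82 and 4.51 in WT PMA, and 4.33 and 4.09 in WT mock. The folds of KO and WT regions overlapped, while their lengths did not.

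**Figure D2:**
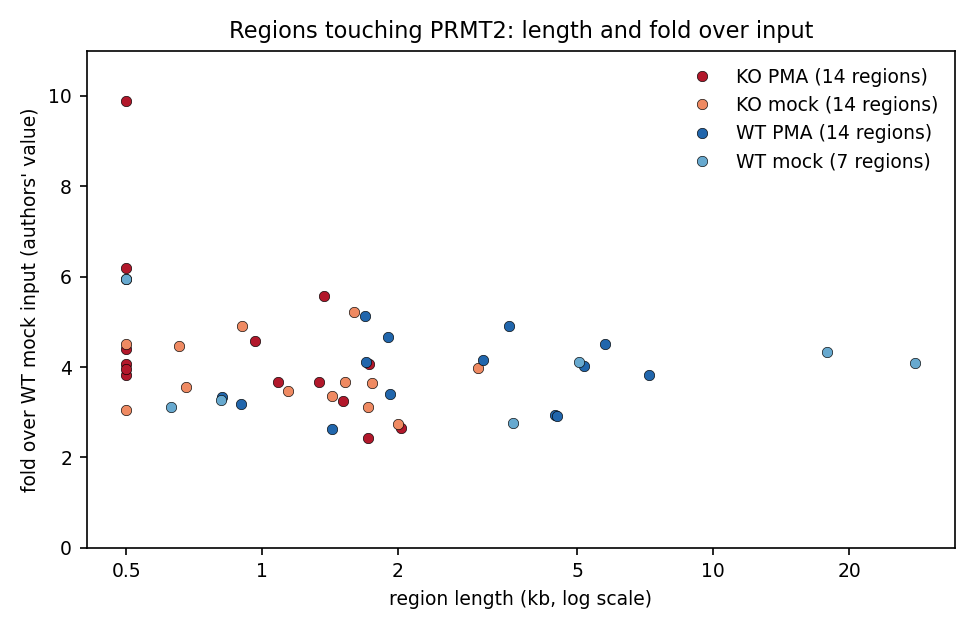
Length (kb, log scale) of each of the 49 regions touching PRMT2 against the authors' fold over the WT mock input, by group. No KO region exceeds 3005 bp, whereas the 2 longest WT mock regions measure 17857 and 28040 bp at 4.33- and 4.09-fold; the highest fold, 9.88, is that of a 500 bp KO PMA region with 1.98 input tags.

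Summed over PRMT2, normalised tags in regions were 120 and 151.3 in KO PMA, 149 and 204 in KO mock, 466 and 441 in WT PMA, and 624 and 636 in WT mock. Per covered kb this was 17.2 and 19.5 in KO PMA, 17.9996 and 22.6 in KO mock, 21.2 and 22.7 in WT PMA, and 24.6 and 25.8 in WT mock. The density per covered kb therefore spanned a far narrower range than the covered length did, and the ranges of KO mock and WT PMA overlapped. The calling threshold of 5.89 to 7.69 tags per 10 M in 500 bp limits how low this density can be. It is not a strict floor for the deposited count. The 500 bp region from 48067113 to 48067613 in KO PMA replicate 1 had 6.57, where that library's threshold was 7.12. The WT mock input held 9.28 and 9.67 tags per covered kb of PRMT2 at the KO PMA regions, 9.15 and 10.96 at the KO mock regions, 10.6 and 11.2 at the WT PMA regions, and 11.4 and 11.7 at the WT mock regions. Over all regions of a library the input held 9.43 to 10.5 tags per covered kb in KO and 6.36 to 7.41 in WT, so the WT regions on PRMT2 lay on sequence with more input tags than the WT regions of the genome as a whole. The part of input coverage in these results was not tested.

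S100B differed from PRMT2 in WT PMA cells. Its covered length was 0 and 0.531 kb in KO PMA, 0.481 and 0.5 kb in KO mock, 0 and 0.5 kb in WT PMA, against 4.14 and 4.26 kb in WT mock. Only the WT mock libraries had more than 1 short region on the gene, covering 63.6% and 65.5% of its 6.505 kb. Normalised tags in regions on S100B were 0 and 10.1 in KO PMA, 8.64 and 12.2 in KO mock, 0 and 8.84 in WT PMA, and 83.1 and 90.2 in WT mock. WT PMA thus sat with the KO groups at S100B and near WT mock at PRMT2. The low WT PMA coverage was not confined to the gene. The 20 kb from 48000001 to 48020000, which hold its lower limit, had 1.98 and 1.65 kb covered in WT PMA. There KO PMA had 0 and 0.627 kb, KO mock 1.37 and 1.64 kb, and WT mock 17.9 and 16.7 kb. The S100B regions of WT mock were weak over input, at 2.78- and 3.96-fold in replicate 1 and 2.95- and 3.22-fold in replicate 2.

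The few S100B calls outside WT mock were scattered. In KO PMA replicate 2 the region ran from 48018434 to 48019061 and in KO mock replicate 1 from 48018137 to 48019011, both across the lower limit of the gene. In KO mock replicate 2 it ran from 48020942 to 48021442, and in WT PMA replicate 2 from 48020405 to 48020905. No position of S100B was covered in both libraries of KO PMA, of KO mock or of WT PMA, whereas both WT mock libraries shared 3152 bp. Between KO PMA and WT PMA the covered length of S100B overlapped, and no difference was detectable at this depth.

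The flanking stretches were covered in WT more than in KO as well. The 30.471 kb between the genes had 1.5 and 0.676 kb covered in KO PMA, 1 and 0.5 kb in KO mock, 9.99 and 6.77 kb in WT PMA, against 21.01 and 21.1 kb in WT mock. The stretch before S100B had 17.0 and 12.03 kb covered in KO PMA, 18.5 and 17.4 kb in KO mock, 60.4 and 50.7 kb in WT PMA, against 89.3 and 78.7 kb in WT mock. Beyond PRMT2 the covered length was 0.5 and 1 kb in KO PMA, 1.403 and 3.42 kb in KO mock, 6.55 and 6.61 kb in WT PMA, against 14.5 and 13.4 kb in WT mock. Both KO groups lay below both WT groups in each of these 3 stretches with no overlap of libraries. How many bins of the genome separate in this way was not counted, and WT mock chose the locus. KO PMA alone lay below WT PMA without overlap in 35.2% of the 100 kb bins of the genome. KO mock lay below WT mock in 10.9% of them.

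**Figure D3:**
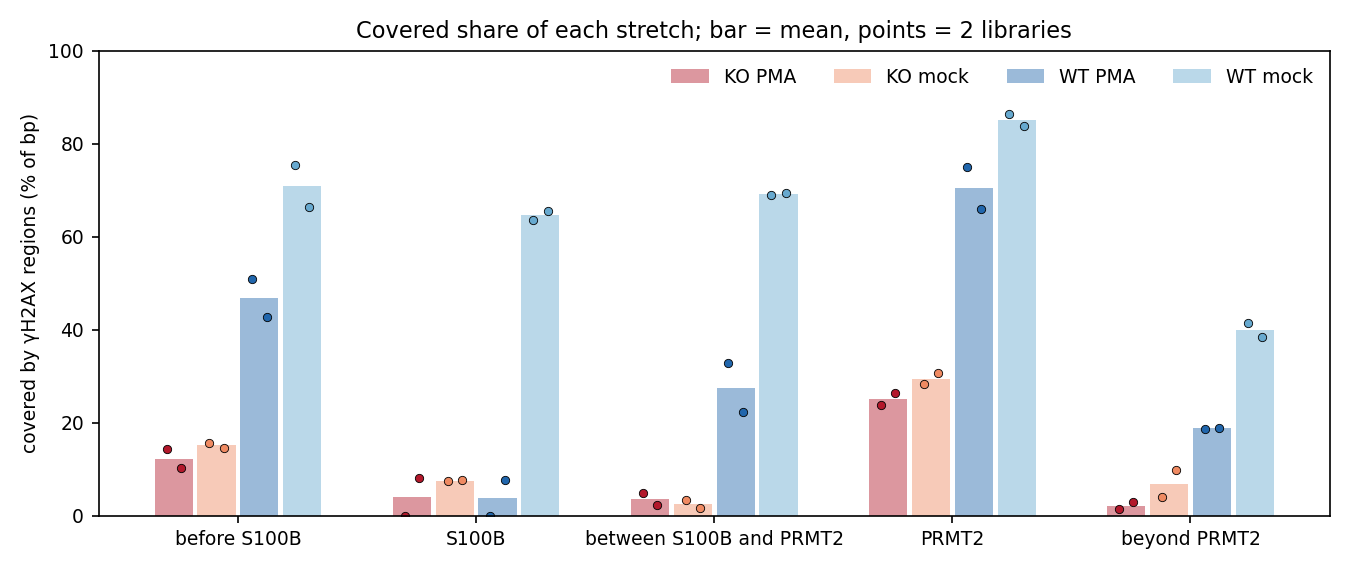
Share of each stretch covered by regions (percent of bp) in the 4 groups, with bars for the mean of 2 libraries and points for the libraries. PRMT2 is the most covered stretch in every group, and S100B is the stretch where WT PMA (0 and 0.5 kb) is as low as KO PMA (0 and 0.531 kb).

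Calls stopped short of the window's end in every library. The last called position on chromosome 21 was 48090333 and 48093571 in KO PMA, 48087515 and 48095086 in KO mock, 48099323 and 48099901 in WT PMA, and 48100503 and 48099841 in WT mock. This left 19392 to 32380 bp uncalled before position 48119895, with the 4 WT libraries reaching farther than the 4 KO libraries. How many chromosome ends separate in this way was not counted, and WT mock chose the locus. The KO libraries also had less covered length beyond PRMT2, so this order is not a separate result. At the other edge the window cut through covered chromatin: in WT PMA replicate 1 a region of 6426 bp (47898414 to 47904840, 2.86-fold) lay across it. The last region just outside was 6683 bp long at 3.81-fold in that library and 500 bp at 5.11-fold in WT PMA replicate 2. In WT mock it was 3545 and 1154 bp long, at 3.88- and 4.06-fold. The first region inside was 1495 bp long in WT PMA replicate 2, and 3210 and 635 bp in WT mock. In KO libraries the regions next to the edge were 699 to 947 bp long outside and 500 to 628 bp inside. The outside region of WT PMA replicate 2 was thus shorter than those of all KO libraries.

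Under PMA, the contrast of KO against WT holds no WT mock library, although WT mock entered the fit's shared spread and its choice of bins. The locus was chosen for its long regions in WT mock cells. Of the PRMT2 positions called in either WT PMA library, 99.0% lay inside WT mock regions. The choice may thus have favoured a lower KO value here, and the limma p-values do not allow for it. The bin of 100 kb that holds both genes (48000001 to 48100000) had 8.99 and 10.1 kb covered in KO PMA, against 40.5 and 34.9 kb in WT PMA. Its log2 difference in covered length was −1.88 (SE 0.17, 95% interval −2.31 to −1.44), lower in KO PMA with a limma adjusted p of 0.00154. The bin before it (47900001 to 48000000) had 17.0 and 11.9 kb in KO PMA, against 58.4 and 49.0 kb in WT PMA, and a log2 difference of −1.84 (SE 0.22, limma adjusted p = 0.00333). A fit of the 6 other libraries alone, added after seeing the data, gave the same differences with limma adjusted p = 0.00448 and 0.00775. Both bins fell, beside 21.9% of the 9552 bins tested that were called lower and 15.9% that were called higher, so such a call was common. The median bin differed by −0.21, and the whole genome split into 1517 bins called higher and 2096 called lower. These counts moved with single libraries: they were 944 higher and 1114 lower without KO PMA replicate 1, 1209 and 1200 without KO PMA replicate 2, and 1038 and 795 without WT PMA replicate 1. With each library centred on its median bin the split was 2114 higher and 1267 lower, and the locus bins were still lower, at −1.45 and −1.41 (limma adjusted p = 0.00187 and 0.00173).

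At a finer scale, 9 of the 10 bins of 20 kb in the window were called lower in KO PMA than in WT PMA by limma, beside 15.8% of the 26365 bins of that size tested. The bin from 48060001 to 48080000, which lies wholly inside PRMT2, had 5.27 and 5.72 kb covered in KO PMA, against 17.1 and 15.7 kb in WT PMA. Its log2 difference was −1.42 (SE 0.15, limma adjusted p = 0.00223). The bin from 48020001 to 48040000, which holds most of S100B, had 0.5 and 0 kb in KO PMA, against 4.12 and 4.37 kb in WT PMA (log2 difference −2.10, SE 0.29, limma adjusted p = 0.00544). Nearly all of that WT PMA coverage lay after the gene, since S100B itself had 0 and 0.5 kb. The bin that missed the threshold, 47920001 to 47940000, differed by −1.68 (SE 0.57, limma adjusted p = 0.0792). By libraries, 4 of the 5 stretches (all but S100B) had both KO PMA values below both WT PMA values, as had 35.2% of the 100 kb bins of the genome. The stretches are 6.505 to 118.531 kb long, so this share and the others given for 100 kb bins are not for windows of like length.

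No difference between KO PMA and KO mock at the locus passed the test. The bin with both genes had 8.99 and 10.1 kb covered in KO PMA, against 12.1 and 15.1 kb in KO mock, a log2 difference of −0.46 (SE 0.17, 95% interval −0.90 to −0.03, limma adjusted p = 0.131). The bin before it had 17.0 and 11.9 kb in KO PMA, against 17.6 and 15.7 kb in KO mock, a log2 difference of −0.21 (SE 0.22, 95% interval −0.76 to 0.35, limma adjusted p = 0.596). With limma 0 of these 2 bins were called, and 1 had an unadjusted p below 0.05, beside 5.34% of all bins called lower (510 bins) and 13.1% called higher (1252 bins). These counts were 257 lower and 280 higher without KO PMA replicate 1, 279 and 556 without KO PMA replicate 2, 99 and 414 without KO mock replicate 1, and 115 and 409 without KO mock replicate 2. Among bins of 20 kb, 0 of 10 were called lower and 2 had an unadjusted p below 0.05, beside 3.25% of all bins called lower. At PRMT2 both KO PMA libraries were below both KO mock libraries in covered length, but their normalised tags overlapped. This separation held in 3 of 6 other sets of regions, and under a 4-fold minimum over input it turned round, to 3.69 and 2.37 kb in KO PMA, against 2.10 and 2.06 kb in KO mock. Both KO PMA libraries lay below both KO mock libraries in 3 of the 5 stretches (before S100B, PRMT2 and beyond it), as in 12.7% of the 100 kb bins of the genome. This comparison shares its KO PMA libraries with the one against WT PMA.

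Against WT mock, both KO mock libraries were below both WT mock libraries in all 5 stretches, as in 10.9% of the 100 kb bins of the genome. The KO mock mean was 0.347-fold of the WT mock mean in covered length at PRMT2, 0.213-fold before S100B, 0.173-fold beyond PRMT2, 0.117-fold at S100B and 0.0356-fold between the genes. Both WT PMA libraries were also below both WT mock libraries in all 5 stretches, as in 4.93% of the bins. At PRMT2 this separation ended when gaps under 1000 bp were joined, with 24.9 and 22.9 kb in WT PMA, against 28.3 and 24.6 kb in WT mock, and at 6-fold over input, where neither group kept a region. At S100B it ended at 4-fold, with 0 and 0.5 kb in WT PMA, against 0 and 0 kb in WT mock. The separation of KO mock from WT mock likewise ended at S100B at 4-fold and at PRMT2 at 6-fold. The WT PMA mean was 0.828-fold of the WT mock mean at PRMT2, 0.661-fold before S100B, 0.471-fold beyond PRMT2, 0.398-fold between the genes and 0.0595-fold at S100B. PRMT2 was the stretch that differed least in fold in both comparisons. These shares are descriptions, since the long WT mock regions chose the locus, both comparisons share the WT mock libraries, and the stretches differ in length from the bins.

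The positions of PRMT2 that KO and WT libraries covered overlapped, within a gene that WT regions covered nearly throughout. WT PMA regions of either library held 88.0% of the gene and WT mock regions of either library 94.0%, so shares near these values are the background for any call on the gene. Positions called in either KO PMA library lay inside WT PMA regions for 96.2% of their length and made up 40.7% of the WT PMA positions. Positions called in either KO mock library lay inside WT mock regions for 100% of their length and made up 39.9% of the WT mock positions, which chose the locus. Regions of either KO PMA library held 37.2% of the gene and those of either KO mock library 37.5%, and the groups shared 64.1% of KO PMA positions and 63.6% of KO mock positions. Positions called in either WT PMA library lay inside WT mock regions for 99.0% of their length, which was 92.7% of the WT mock positions.

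All 8 libraries covered 2627 bp of PRMT2 in 3 pieces, from 48070037 to 48071409, from 48072473 to 48073557 and from 48083477 to 48083648. The 4 KO libraries had the same 2627 bp in common, so every position of the gene that all 4 shared was also called in all 4 WT libraries. The 4 WT libraries had 14815 bp of the gene in common. In the rest of the window all 8 libraries shared only 507 bp before S100B (47967795 to 47968302), and none in S100B, between the genes or beyond PRMT2. At the first PRMT2 piece the region had 30.7 and 30 normalised tags in KO PMA (4.07- and 5.58-fold over input), 30.9 and 70.5 in KO mock (5.22- and 3.97-fold), and 33.1 and 145.5 in WT PMA (5.13- and 4.51-fold). In WT mock this piece was part of the 17857 and 28040 bp regions described above. In WT PMA replicate 1 the region at this piece was 1696 bp long, within the range of the KO regions there (1372 to 3005 bp), so at this spot that library looked like the KO libraries.

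Replicates shared more of their positions on PRMT2 than over the genome in all 4 groups, and in the window in all groups but KO PMA. The Jaccard index between the replicates of a group, shared positions over positions covered in either, was 0.347 on PRMT2 and 0.170 in the window for KO PMA, against 0.265 over the genome. It was 0.572, 0.310 and 0.147 for KO mock, 0.601, 0.460 and 0.131 for WT PMA, and 0.810, 0.708 and 0.131 for WT mock, for PRMT2, window and genome in that order. The index rises with the share of a stretch that is covered, so these values are a description.

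The window's place among all 13810 windows of its length differed between genotypes, and between mock and PMA within each genotype. By covered length it ranked 485 and 451 in KO PMA, 70 and 75 in KO mock, 4 and 4 in WT PMA, and 2 and 2 in WT mock. It held 0.0609% and 0.0635% of all covered length in KO PMA, 0.169% and 0.175% in KO mock, 0.315% and 0.337% in WT PMA, and 1.57% and 1.69% in WT mock. The KO libraries thus had a lower share here than WT libraries under the same treatment. They also had more covered length in the genome, which by itself lowers this share. Among 103275 windows of the length of PRMT2, the gene ranked 1842 and 1195 in KO PMA, 143 and 144 in KO mock, 6 and 5 in WT PMA, and 3 and 5 in WT mock. WT mock regions chose the locus, so a high place in WT mock was favoured in advance. These ranks and shares, and comparisons with WT mock, are descriptions.

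The bins whose covered length followed that of the S100B and PRMT2 bin most closely over the 8 libraries were looked up next. From 1337 bins with a mean covered length of at least 5 kb, 5 were taken, at most 1 per 10 Mb and none within 1 Mb of the window. The first was on chromosome 7 from 159100001 to 159200000, with a Pearson r of 0.983. It contained the last called position of that chromosome. The others were on chromosome 20 from 62800001 (r = 0.976), chromosome 2 from 200001 (r = 0.974), chromosome 8 from 146200001 (r = 0.973) and chromosome 6 from 500001 (r = 0.964). The chromosome 20 and 8 bins ended 64.4 and 1.92 kb before the last called position, and the chromosome 2 and 6 bins began 200 and 500 kb after the chromosome's start. All 5 thus lay within 500 kb of a chromosome's start or last called position, as did 98 (7.33%) of the 1337 bins compared. No spacing was applied to the 1337 bins, and this distance was chosen after the 5 bins were seen. The 8 points fall into the same 4 groups in every bin, so r is a description of likeness and carries no p.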

How the data were processed

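γH2AX ChIP-seq was analysed from 8 lists of regions, 1 per library. An input library of WT mock cells entered only through the authors' values. CASAVA 1.4, BWA, HOMER and the build hg19 are named in the submitters' processing notes. HOMER took every library on its own and set it against the WT mock input, per the file headers. It kept windows of 500 bp at least 2-fold over input, joined them into regions and used at most 1 tag per bp. The deposited signal is a region's tag number per 10 M tags of its library. Total tags are deposited as counts in 5 libraries and scaled to the input's depth in the other 3, and HOMER writes 0.5 for an input of 0. The deposited fold is tags over input tags at equal depth. The deposited p-value and score are HOMER's own per region, and the score was used only to rank regions. Region size is the deposited end minus start.

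Covered length was the merged length of regions inside a stretch, and tags of a region across a limit were shared out by overlap. Bins of 100 kb covered in at least 2 libraries were tested genome-wide with limma 3.58.1 (R 4.3.3) on log2(covered bp + 1000) with trend, all 4 groups in 1 fit, two-sided, at a Benjamini-Hochberg adjusted p of 0.05. This scale understates changes of little-covered bins, and neighbouring bins are not independent. Only contrasts without WT mock were tested. For 2 libraries against 2, an exact permutation test cannot go below 0.333, so none was run. Python 3.11.15 with pandas 2.3.3 did the rest. The fit was checked on simulated data with normal noise and a shift larger than the differences at the locus. That check does not show how the fit performs at differences of the size reported. Like bins were the 5 with the highest Pearson r over 8 libraries, none within 1 Mb of the window. Alternatives were other fold and length minimums, a common tag threshold, equal numbers of regions, joined gaps, other pseudocounts, bins and scalings, a replicate block, and leaving out each library. The genes, stretches and tests were chosen with earlier results of these data known. Lists of PRMT and S100 family genes and of neighbours on chromosome 21 were not used here, since no annotation of hg19 was given. Sequence came from RefSeq on GRCh38.p14, where PRMT2 matched and S100B had no promoter entry, and no coordinate was converted between builds.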

Additional observations from a re-analysis of the deposited data

How the results depend on the processing

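The lower coverage of both locus bins in KO PMA than in WT PMA kept its direction under all 21 alternatives, at −2.65 to −0.82 on the log2 scale (limma adjusted p 0.00127 to 0.294) for the bin from 47900001 and −2.30 to −0.69 (0.000504 to 0.446) for the bin from 48000001. It missed the threshold only with a minimum of 4-fold over input (−1.12 for the bin from 47900001) or 6-fold (−0.82 and −0.69). Leaving out 1 library gave −2.08 to −1.60 and −1.98 to −1.77. For KO PMA against KO mock, not called in any alternative (limma adjusted p 0.0792 to 1 and 0.0851 to 1), the difference grew to −0.94 and −1.19 with equal numbers of regions, while the sign turned at 4-fold (0.17 for the bin from 47900001, 0.015 for the bin from 48000001), at 6-fold (0.26 for the bin from 48000001), with the bin of 20 kb inside PRMT2 (0.020), and without KO PMA replicate 2 (0.030 for the bin from 47900001); leaving out 1 library gave −0.45 to 0.03 and −0.61 to −0.31. The replicate block left the values at −1.84 and −1.88 against WT PMA and −0.21 and −0.46 against KO mock (limma adjusted p 0.00463, 0.00566, 0.477 and 0.188) and changed no call; same-numbered libraries deviated together with correlations of −0.0585 to 0.164, so the numbers were not taken to pair them.

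For PRMT2 the difference in covered kb depended on the minimum fold. At 4-fold it was −7.05 (KO PMA against WT PMA), 0.955 (KO PMA against KO mock), −20.4 (KO mock against WT mock) and −12.4 (WT PMA against WT mock); at 6-fold it was 0.5, 0.5, 0 and 0. With regions of at least 1000 bp KO mock against WT mock was −17.2. With equal numbers of regions, KO PMA against KO mock was −4.14 and WT PMA against WT mock −7.01. With gaps joined, KO PMA against KO mock was −2.97 and KO mock against WT mock −14.5. For S100B, KO mock against WT mock was 0 at 4-fold and at 6-fold, −4.20 at 1000 bp, −3.95 with equal numbers and −4.34 with gaps joined; WT PMA against WT mock was 0.25, 0 and −4.59 at 4-fold, 6-fold and with gaps joined. Leaving out 1 library, PRMT2 gave −14.6 to −12.0, −1.67 to −0.913, −16.7 to −15.9 and −4.68 to −2.98 kb, and S100B −0.25 to 0.281, −0.491 to 0.0405, −3.77 to −3.65 and −4.20 to −3.70 kb, in the order of comparisons given above. With windows of PRMT2's length, the share of windows below was 98.5% in KO PMA, 99.862% in KO mock, 99.9956% in WT PMA and 99.9971% in WT mock. The causes were not tested, apart from the fold minimums, which leave fewer regions.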

Other observations

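Between S100B and PRMT2 lay a spot where regions outside WT mock were called on few input tags. They ran from 48047356 to 48048032 in KO PMA replicate 2, with 10 normalised tags and 1.05 input tags, and from 48047615 to 48048115 in KO mock replicate 2, with 9.61 normalised tags and no input tag, which the caller replaces by 0.5. In WT PMA the regions there had 11.4 and 11.2 normalised tags with 2 and 4.05 input tags. The deposited folds of these KO and WT PMA regions rest on 0 to 4.05 input tags and are not ranked here. In WT mock the spot lay inside regions of 8132 and 4610 bp with 66 and 45 input tags. Calls on so few input tags also occurred elsewhere in the window, as from 48026474 to 48026974 in KO PMA replicate 1 (1.02 input tags).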
